A study of Mus musculus with 14 samples.

Results

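The 69 genes described here encode the classical axon guidance ligands and receptors of the mouse: semaphorins of classes 3 to 7, plexins, neuropilins, Slits, Robos, netrins, Unc5 proteins and Dcc, Eph receptors and ephrins. They are all of the protein-coding genes of GRCm38 (21887 in all) whose symbols carry these family names, 35 for ligands and 34 for receptors. Each PRDM16 peak of wild-type (WT) ventricles was given to the protein-coding gene nearest to its summit, the base of highest signal. This placed 202 of 17587 peaks (1.15%, 95% Wilson interval 1.001 to 1.32%) with 48 of the 69 genes.

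Binding of PRDM16, a zinc-finger transcription factor, was measured by chromatin immunoprecipitation and sequencing (ChIP-seq) in C57BL/6 mouse ventricles at E13.5 (embryonic day). Whole ventricles, without the atria, gave 2 WT ChIP libraries and 1 of the conditional knockout Prdm16cKO, each from 3 pooled hearts, and the left (LV) and right ventricle (RV) of WT embryos gave 2 ChIP libraries each, from pools of 10 to 12 ventricles. Every ChIP library has an input library, so that the series has 14 samples in 8 groups. The Cre driver and the cells in which the knockout allele is recombined are not stated in the sources used here. All tissue was crosslinked with EGS and formaldehyde. Whole ventricles mix cardiomyocytes, endocardium, epicardium, vessels and nerves, and a peak does not say in which of these cells PRDM16 was bound.

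The ChIP libraries of each ventricle are called A and B. Over the WT peaks LV A had 330443 reads, LV B 184244, RV A 281797 and RV B 267808, with a median of 6 to 10 reads per peak. At the 202 peaks of the guidance genes the sums were 3347, 1614, 2712 and 2484 reads. The knockout list holds 330 peaks. Of the genes that mark cell types of the ventricles, 10 of 10 cardiomyocyte genes, 7 of 8 endothelial and endocardial genes, 3 of 5 epicardial genes, 3 of 6 genes of neural crest and neurons (50%) and 2 of 5 blood genes (40%) had a peak, against 32.6% of all protein-coding genes. In that order, the lists had 80.9, 8.06, 10.8, 3.82 and 7.25 peaks per Mb of the sequence nearest to their genes. All genes together had 6.46. ChIP measures no RNA, so these counts describe binding and do not identify the cells.

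Axon guidance molecules steer growing axons, and the same families also guide endothelial cells and heart cells. Semaphorins signal through plexins, and most class 3 semaphorins need a neuropilin as co-receptor. Slits bind Robos. Netrins attract through Dcc and repel through Unc5 receptors. Ephrins are tethered to the membrane, by a lipid anchor in class A and a transmembrane segment in class B, and signal to Eph receptors on touching cells and back into the cell that carries them. In the developing heart Sema3c, Nrp1 and Plxnd1 are known for their roles in outflow tract septation, Efnb2 and Ephb4 mark arterial and venous endothelium, and Sema6d acts through Plxna1 in the ventricle of the chick embryo.

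A start site was listed for 59 of the 69 genes, and the others, Plxna4, Ntn1 and Efnb3 among them, could not be counted here. Promoter summits were counted for the 59 genes only, so no share over all genes can be set beside them. Promoters of 7 of the 59 genes held a PRDM16 summit within the window of 250 bases before to 50 bases after a start site: Nrp1, Epha3, Sema5b, Sema3c, Ephb4, Plxnc1 and Unc5b. The 4 sequences below show 2 that carry the strongest of these peaks (Nrp1 and Epha3), that of the venous marker Ephb4 and that of Unc5b, the gene with the most peaks. They are RefSeq sequences of GRCm38.p6, read 5′ to 3′ on the strand of the gene, at chr8:128358823-128359122 (plus strand), chr16:63864126-63864425 (minus strand), chr5:137349859-137350158 (plus strand) and chr10:60831532-60831831 (minus strand). Capitals mark the 21 bases centred on the summit.
Nrp1: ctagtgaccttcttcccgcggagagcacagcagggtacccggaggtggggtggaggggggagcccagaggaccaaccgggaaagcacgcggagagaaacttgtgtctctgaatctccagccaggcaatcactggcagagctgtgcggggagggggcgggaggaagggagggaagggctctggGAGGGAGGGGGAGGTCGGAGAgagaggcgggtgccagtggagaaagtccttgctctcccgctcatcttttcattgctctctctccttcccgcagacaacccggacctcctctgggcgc
Epha3: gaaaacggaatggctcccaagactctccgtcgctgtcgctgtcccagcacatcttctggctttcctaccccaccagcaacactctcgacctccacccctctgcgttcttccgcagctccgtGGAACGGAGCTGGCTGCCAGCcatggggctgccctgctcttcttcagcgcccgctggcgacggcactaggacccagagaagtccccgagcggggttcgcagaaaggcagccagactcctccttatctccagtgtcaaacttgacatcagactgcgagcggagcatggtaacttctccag
Ephb4: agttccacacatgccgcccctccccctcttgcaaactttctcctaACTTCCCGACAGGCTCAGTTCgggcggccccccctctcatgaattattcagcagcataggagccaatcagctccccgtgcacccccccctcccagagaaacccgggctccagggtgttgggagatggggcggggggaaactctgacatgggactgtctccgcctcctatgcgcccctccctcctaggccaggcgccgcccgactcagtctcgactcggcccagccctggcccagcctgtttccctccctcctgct
Unc5b: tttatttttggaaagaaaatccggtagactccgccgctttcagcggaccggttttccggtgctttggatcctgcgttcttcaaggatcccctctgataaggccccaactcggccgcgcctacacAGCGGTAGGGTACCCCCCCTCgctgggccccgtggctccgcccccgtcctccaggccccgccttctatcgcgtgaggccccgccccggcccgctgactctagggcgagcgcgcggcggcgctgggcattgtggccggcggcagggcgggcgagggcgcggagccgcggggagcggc

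The Nrp1 summit lay 58 bp upstream of a listed start site, with an authors' fold enrichment (ChIP over background) of 6.48. Summits of Epha3, Ephb4 and Unc5b lay 119, 195 and 116 bp upstream, with folds of 6.34, 3.37 and 2.81. These windows were rich in G and C, at 64%, 60.7%, 64.7% and 69.7% against a median of 52.7% over all 32851 windows of the RefSeq table. That background covers windows with and without a summit, and windows of other genes with a summit were not compared. Counting both strands, the GC box GGGCGG occurred once in the window of Nrp1, 4 times in that of Ephb4 and 3 times in that of Unc5b, and 35.7% of all windows hold it. The core letters of TEAD sites (GGAATG, in 14.7% of all windows) and of GATA sites (AGATAA, in 11.2%) occurred in the window of Epha3 and in none of the other 3. A match of letters is a description and not a bound site.

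Binding was spread over all families. In all, 48 of 69 genes (69.6%) had at least 1 peak, against 32.6% of all protein-coding genes, and 18 genes (26.1%) had 5 or more against 4.30%. Guidance genes are long, with a median length of 46.3 kb against 17.2 kb of all genes, and the sequence nearest to each gene had a median of 160.0 kb against 45 kb. Per length the 69 genes together had 5.93 peaks per Mb of nearest sequence, against 6.46 for all genes. Single families lay on both sides of that rate: neuropilins (19.5), netrins (15.6), semaphorins of classes 4 to 7 (11.6), plexins (9.70) and EphB receptors (8.52) above it, and the other 7 families below, down to 2.35 for the Robos. The number of peaks of a gene went with the length of its nearest sequence across the 69 genes (Spearman rho 0.71, given as a description, since each gene's sequence also sets its chance of holding a peak). Genes with a peak had a median length of 147 kb, and the 21 genes without a peak one of 16.4 kb.

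**Figure D1:**
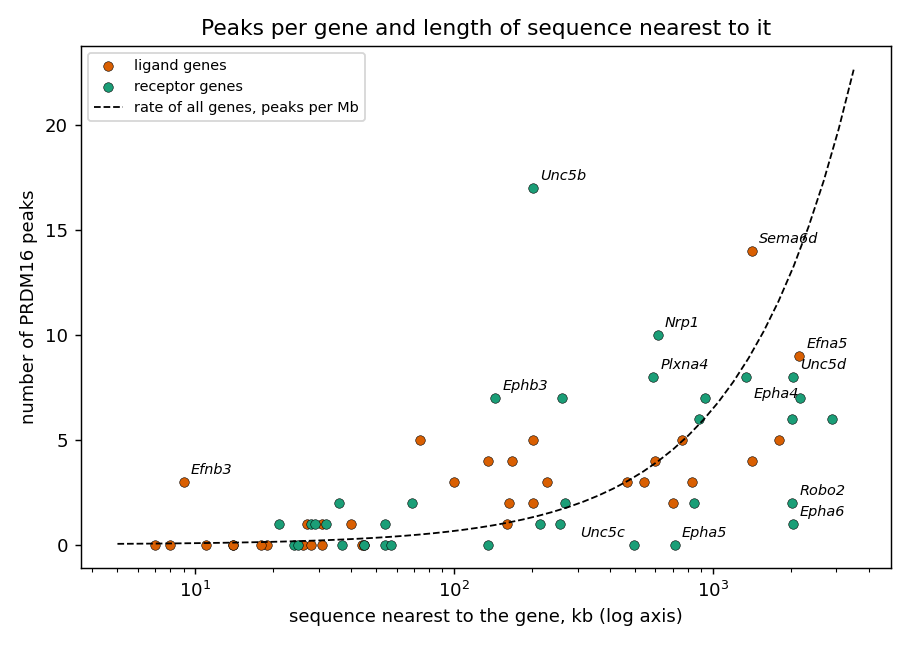
Number of PRDM16 peaks per guidance gene (vertical axis) against the length of sequence nearest to that gene in kb (log axis), 1 point per gene, for 35 ligand and 34 receptor genes; the dashed line is the rate of all genes, 6.46 peaks per Mb. Unc5b (17 peaks) and Nrp1 (10) sit above the line, and Epha5 and Unc5c sit at 0 despite 713 and 497 kb of nearest sequence.

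The count of genes depends on how peaks are given to genes, and so does the background. With summits within 10 kb of the gene only, 43 guidance genes (62.3%) had a peak against 27.6% of all genes, and within 50 kb 45 (65.2%) against 30.5%. Peaks with a −log10 q of 5 or more gave 40 genes (58.0%) against 25.8%, and those with a fold of 5 or more gave 29 (42.03%) against 13.4%. Leaving out peaks that overlap the knockout list left 48 (69.6%) against 32.3%, and counting every gene within 50 kb of a summit gave 56 (81.2%) against 56%. In each of these settings the share was above that of all genes, but none of them takes the length of the genes into account.

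Fold enrichment was close to that of the other peaks, with a median of 4.16 (range 1.59 to 22.4) against 4.004 over all WT peaks. Folds of at least 5 were found at 64 peaks (31.7%, Wilson interval 25.7 to 38.4%) against 26.1%, and folds of at least 10 at 9 peaks (4.46%, 2.36 to 8.25%) against 2.95%. Receptors had 115 peaks at 25 of 34 genes, with a median fold of 4.24, and ligands had 87 peaks at 23 of 35 genes, with a median fold of 4.13. The strongest peaks belonged to a receptor, Nrp1, and to ligands of another pathway, the netrins Ntn1 and Ntn4. Both WT samples share 1 peak list, so folds rank peaks within that list and carry no replicate error.

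**Figure D2:**
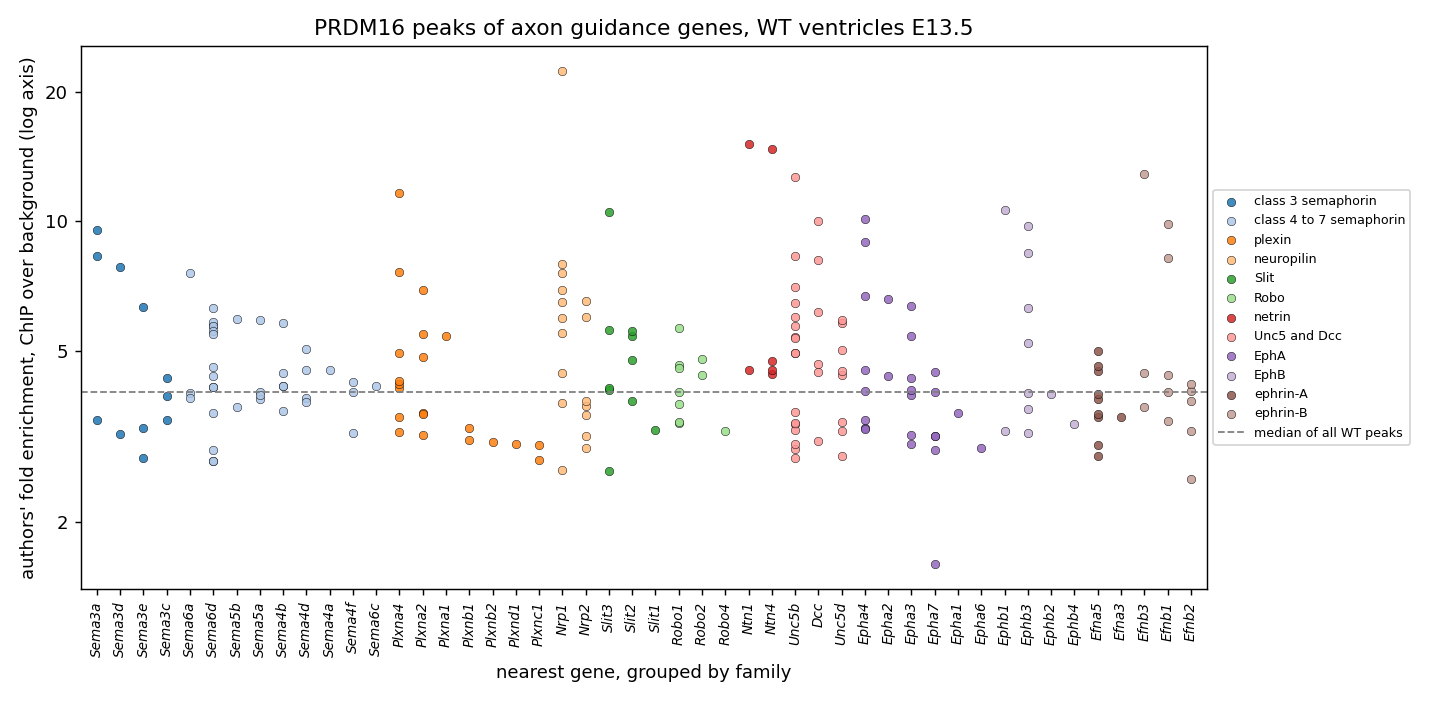
Authors' fold enrichment (log axis) of each of the 202 peaks by nearest gene, coloured by family, with the median of all WT peaks (4.004) as a dashed line. The highest points are Nrp1 (22.4), Ntn1 (15.1) and Ntn4 (14.7), and 9 peaks reach a fold of 10.

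Among class 3 semaphorins, which are secreted, 4 of 7 genes had 11 peaks. Sema3a, a repellent ligand for neuropilin-1 complexes, had the strongest, with a fold of 9.54, on chromosome 5 at 13022270 to 13022846 and 102 kb outside the gene. It also had a peak inside the gene, with a fold of 8.32. That summit lay 204 kb from the nearer gene end but 2587 bp after a listed start site. Sema3d followed with 7.82 inside the gene, Sema3e, the ligand of Plxnd1, with 6.33 inside the gene, and Sema3c with 4.31. No peak was nearest to Sema3b, Sema3f or Sema3g.

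Semaphorins of classes 4 to 7, which are bound to the membrane, had 37 peaks at 9 of 13 genes. Sema6d had 14 of these, second among all guidance genes, and 12 lay inside the gene, whose strongest peak reached 6.28. Sema6a had the highest fold of the group, 7.58, at 154 kb from the gene, and Sema5b reached 5.92 inside the gene. Sema4c, Sema4g, Sema6b and Sema7a had none.

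Plexins, the semaphorin receptors, had 21 peaks at 7 of 9 genes. Plxna4 carried 8 of them, and its strongest reached a fold of 11.6 inside the gene on chromosome 6 at 32479065 to 32479831. That region held 81 (A) and 32 (B) reads in LV and 75 and 58 in RV, or 60.3, 46.9, 65.0 and 55.9 normalized reads (reads times the factor of each library). The ventricles overlapped there. Plxna2 reached 6.92 and Plxna1, the receptor of Sema6d, had 1 peak of 5.41. Plxnb1, Plxnb2, Plxnc1 and Plxnd1 had peaks of at most 3.30, and Plxna3 and Plxnb3 had none.

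The neuropilins, co-receptors for class 3 semaphorins and for VEGF, were the family with the most peaks for their length, 17 peaks at 19.5 per Mb. Nrp1 held the strongest peak of all guidance genes and rank 14 of all 17587 peaks, on chromosome 8 at 128112487 to 128113648, with a fold of 22.4. Its summit was 245 kb upstream of Nrp1, the next nearest gene being Pard3 at 501 kb. Nrp1 had 10 peaks in all, of which 4 lay inside the gene, 2 lay 630 and 1472 bp before it and 4 lay 135 to 324 kb upstream. Nrp2 had 7, and its strongest reached 6.52 at 9.57 kb from the gene.

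Slits, the secreted ligands of Robos, had peaks at 3 of 3 genes, 10 in all. Slit3 reached 10.5 inside the gene on chromosome 11 at 35293188 to 35293691, and its 5 peaks were all inside the gene. Slit2 reached 5.55 at 129.6 kb from the gene and Slit1 3.27. The Robo receptors had as many peaks, 10, over 3 of 4 genes, but in longer sequence, at 2.35 per Mb against 4.27 for the Slits. Robo1 reached 5.65, Robo2 4.79 and Robo4, the endothelial member, 3.24, while Robo3 had none.

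Netrins had 6 peaks at 2 of 4 genes, and both genes stood near the top of the list. Ntn1, the founding netrin, reached 15.1 at 4.24 kb from the gene, on chromosome 11 at 68390476 to 68391646, and Ntn4, a basement membrane netrin, reached 14.7 inside the gene, 6994 bp after its start site. The Ntn4 region on chromosome 10, at 93647686 to 93648868, held 122 and 48 reads in LV and 75 and 73 in RV, or 90.8, 70.3, 65.0 and 70.4 normalized reads, so that the ventricles overlapped. Ntn3 and Ntn5 had none. Among the netrin receptors Unc5b, which endothelial cells carry, had 17 peaks, the most of any guidance gene, in 202 kb of nearest sequence (84.2 per Mb). Its strongest reached 12.7 on chromosome 10 at 60917926 to 60918426, 86.6 kb upstream. Dcc reached 9.99 at 27.5 kb from the gene and Unc5d, with 8 peaks, 5.89. Unc5a and Unc5c had none.

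EphA receptors had 25 peaks at 6 of 9 genes, and EphB receptors 11 at 4 of 5. Epha4, which binds ephrins of both classes, had 8 peaks, of which 7 lay 154 to 788 kb away from the gene, and the strongest reached 10.1 at 709 kb, on chromosome 1 at 76658226 to 76658760. At such distances the nearest gene is an assignment by position only. Epha2 reached 6.57 inside the gene, and Epha3 had its strongest peak at the promoter shown above. Epha5, Epha8 and Epha10 had none. Ephb1 reached 10.6 inside the gene and Ephb3 9.72 at 48.6 kb, while Ephb2 reached 3.96, Ephb4 3.37 and Ephb6 had none.

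Ephrin-A genes had 10 peaks, 9 of them at Efna5 (strongest fold 4.997) and 1 at Efna3 (3.50), with none at Efna1, Efna2 or Efna4. Ephrin-B genes had peaks at 3 of 3 genes. Efnb3, which has only 9 kb of nearest sequence, had 3 peaks with folds up to 12.9, the strongest inside the gene on chromosome 11 at 69559069 to 69559826 and 2369 bp from Wrap53. Efnb1 reached 9.84 at 137 kb from the gene. All 5 peaks of Efnb2 lay 175 to 1549 kb away, including the farthest of all guidance peaks, and none exceeded 4.18.

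The share of guidance peaks far from genes was above that of all WT peaks, as a description with no test. The sequence nearest to a guidance gene is also longer, with a median of 160 kb against 45 kb for all genes. Whether the share goes with that length was not tested. Unc5b and Epha4 alone had 7 peaks each beyond 50 kb. Inside the gene lay 113 peaks (55.9%, Wilson interval 49.0 to 62.6%) against 58.9% of all peaks. Outside but within 50 kb lay 30 (14.9%, 10.6 to 20.4%) against 25.5%, and beyond 50 kb lay 59 (29.2%, 23.4 to 35.8%) against 15.6%. Median fold was 4.09 inside, 4.06 within 50 kb and 4.49 beyond, against 3.98, 3.97 and 4.17 for all WT peaks. Start sites were listed for 59 of the 69 genes and 170 of the peaks, and 19 of these (11.2%, 7.27 to 16.8%) lay within 1000 bp of one, against 17.5% of all peaks. Median fold at those 19 was 3.45, with at most 6.48, against 4.18 for the peaks farther away. All WT peaks showed the same order, with a median fold of 3.56 near start sites and 4.09 farther away.

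**Figure D3:**
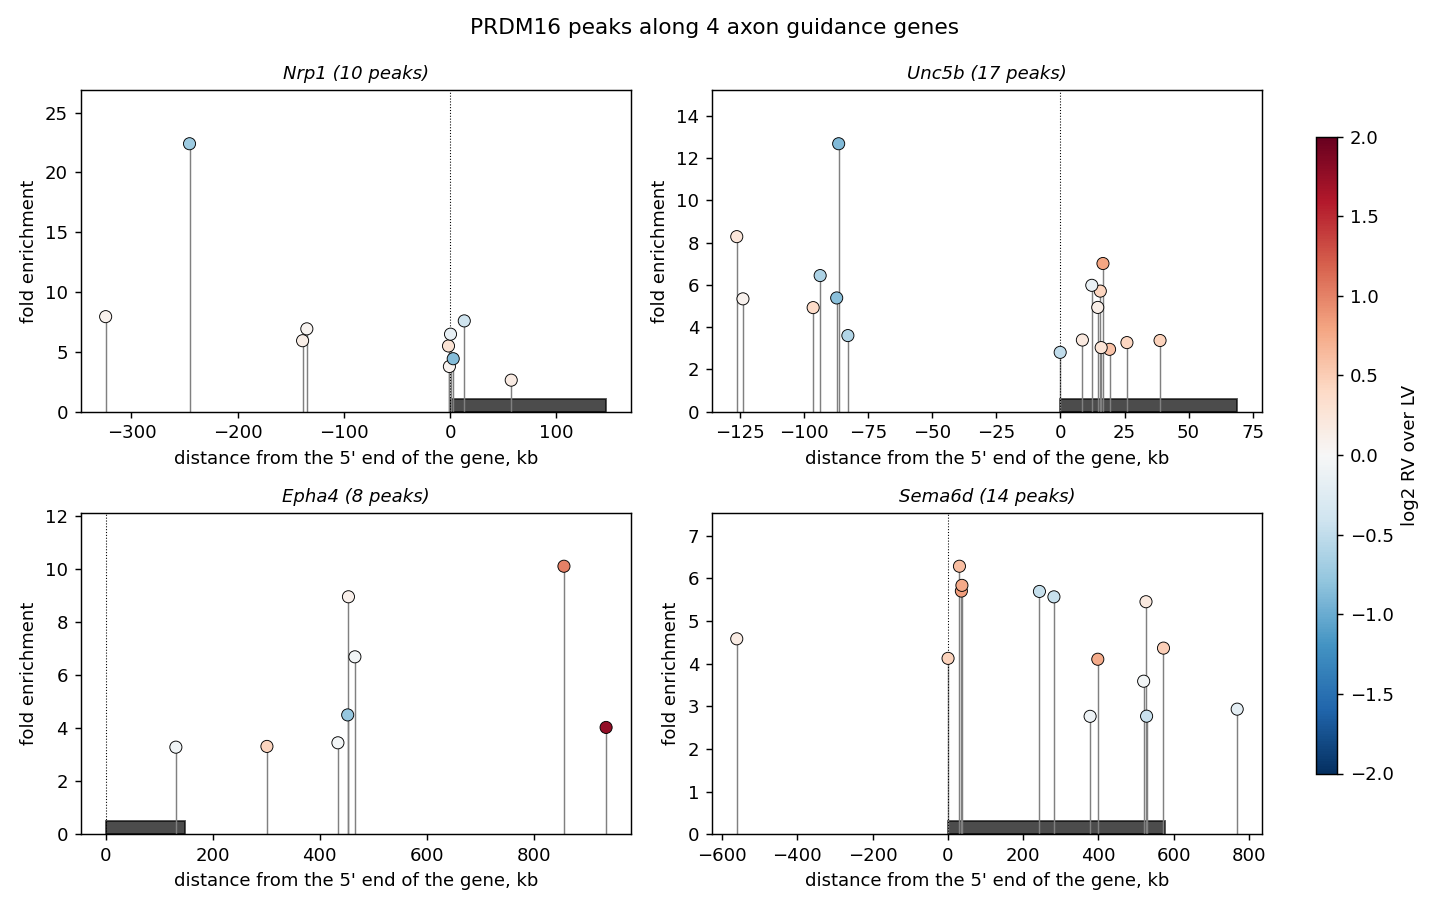
Fold enrichment of each PRDM16 peak (vertical axis) along Nrp1, Unc5b, Epha4 and Sema6d against distance from the 5′ end of the gene in kb, with the gene as a dark bar and each point coloured by the authors' log2 of RV over LV (red higher in RV, blue higher in LV). The strongest Nrp1 and Unc5b peaks stand 245 and 86.6 kb upstream, 7 of 8 Epha4 peaks lie past the end of the gene, and 12 of 14 Sema6d peaks lie inside it.

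WT against Prdm16cKO ventricles was the control for the specificity of the antibody. A knockout peak was met by 1 of the 202 guidance peaks (0.495%, Wilson interval 0.0874 to 2.75%), against 1.12% of all WT peaks. That peak, on chromosome 4 at 28176871 to 28177074, was 636 kb from Epha7 and had the lowest fold of all 202, 1.59. The knockout peak there had a fold of 3.91 and was the only one of 330 nearest to a guidance gene. None of the other guidance peaks, those of Nrp1, Unc5b and the netrins included, overlapped the knockout list. With 1 knockout library there is no replicate test, and the sources used here do not state how deeply the whole-ventricle libraries were sequenced.

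LV against RV asks whether PRDM16 occupies the guidance genes differently in the ventricles. By the adjusted p of the authors' deposited table, 0 guidance regions passed 0.05, and 0% of all 17587 regions did. By the unadjusted p of the authors' deposited table, 1 guidance region passed 0.05 with a higher value in LV (Efnb3), against 0.341% of all regions, and 0 with a higher value in RV, against 0.142%. limma, fitted to log2 of normalized reads plus 1 over all regions with 2 pools per ventricle, also called 0 guidance regions at an adjusted p of 0.05, against 0.0284% of all (5 regions). At an unadjusted p of 0.05 limma counted 6 guidance regions higher in LV, against 3.13% of all regions, and 8 higher in RV, against 3.18%. Each replicate is a pool of 10 to 12 ventricles, and LV and RV libraries were not paired in the fit.

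The regions were split nearly evenly between the ventricles. Of the 202 regions 102 were higher in RV and 100 in LV, and their median log2 of RV over LV was 0.03 (SD over regions 0.59), against −0.0028 for all regions. Receptor genes had 63 regions higher in RV and 52 in LV, and ligand genes 39 and 48. Both LV libraries were above both RV libraries at 34 regions (16.8%) against 17.9% of all, and both RV libraries above both LV libraries at 37 (18.3%) against 17.6%. A difference of at least 1 on the log2 scale was seen at 17 regions (8.42%), against 10.6%. All of these shares were near those of the whole peak list.

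The smallest p on the LV side belonged to Efnb3, a transmembrane ephrin, in the region on chromosome 11 at 69560885 to 69561507. Its summit lies 263 bp from Efnb3 and 341 bp from Wrap53, so that the assignment is close. The region held 42 (A) and 26 (B) reads in LV and 14 and 16 in RV, or 31.3, 38.1, 12.1 and 15.4 normalized reads. Both LV libraries were above both RV libraries. The log2 of RV over LV was −1.30 in the authors' deposited table (unadjusted p 0.0258, adjusted p 0.9998), and −1.27 ± 0.34 (SE) by limma, with a limma adjusted p of 0.393. The other regions of Efnb3, inside the gene, had log2 values of −0.19 and −0.30.

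The other regions with the smallest p on the LV side belonged to Nrp1, Ntn1, Unc5b and Plxna2, and none passed an adjusted p of 0.05 in either test. At the 22.4-fold Nrp1 region normalized reads were 115 and 65.9 in LV and 67.6 and 41.5 in RV, so that the libraries overlapped, and limma gave a log2 of −0.71 ± 0.34 (SE, adjusted p 0.780). The Ntn1 region had 87.1 and 58.6 in LV and 45.03 and 45.3 in RV, which did not overlap, with a limma log2 of −0.65 ± 0.32 (adjusted p 0.786). Plxna2, on chromosome 1 at 194687557 to 194688499, had the closest replicates, 29.0 and 29.3 normalized reads in LV against 15.6 and 15.4 in RV, and a limma log2 of −0.87 ± 0.34 (adjusted p 0.682). The strongest Unc5b region had 40.2 and 24.9 in LV and 14.7 and 20.3 in RV, with a limma log2 of −0.84 ± 0.35 (adjusted p 0.706). The strongest regions of Ntn4, Efnb3 and Ephb1 were also higher in LV on average, with log2 values of −0.25, −0.19 and −0.73 in the authors' deposited table. Their unadjusted p there were 0.522, 0.715 and 0.284. Of these Ephb1 had both LV libraries above both RV libraries, and the libraries overlapped at Ntn4 and Efnb3. The strongest Plxna4 region, with a fold of 11.6, was higher in RV at 0.17 (authors' unadjusted p 0.712), with overlapping libraries. The strongest regions of Slit3 and Epha4, with folds of 10.5 and 10.1, were also higher in RV and are given below. The strongest regions were not tested as a group.

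Higher in RV, again with no adjusted p under 0.05, were the strongest regions of Epha4 and Slit3, a region inside Unc5b and one near Efnb1. The Epha4 region had 16.4 and 11.7 normalized reads in LV and 27.7 and 29.9 in RV, with a limma log2 of 1.003 ± 0.35 (SE, adjusted p 0.610). Slit3 had 12.7 and 10.3 in LV and 21.7 and 24.1 in RV, with a limma log2 of 0.94 ± 0.37 (adjusted p 0.682). In these regions both RV libraries were above both LV libraries. The Efnb1 region on chromosome X, at 99199186 to 99199415 and 50.3 kb from the gene, rests on few reads, 6 and 0 in LV and 8 and 12 in RV, and its limma log2 was 2.09 ± 0.73 (adjusted p 0.610). Without LV library A, which leaves only the library with 0 reads there, limma gave a log2 of 3.32. All 5 Efnb1 regions were higher in RV, and LV library B held at most 4 reads at each of them.

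**Figure D4:**
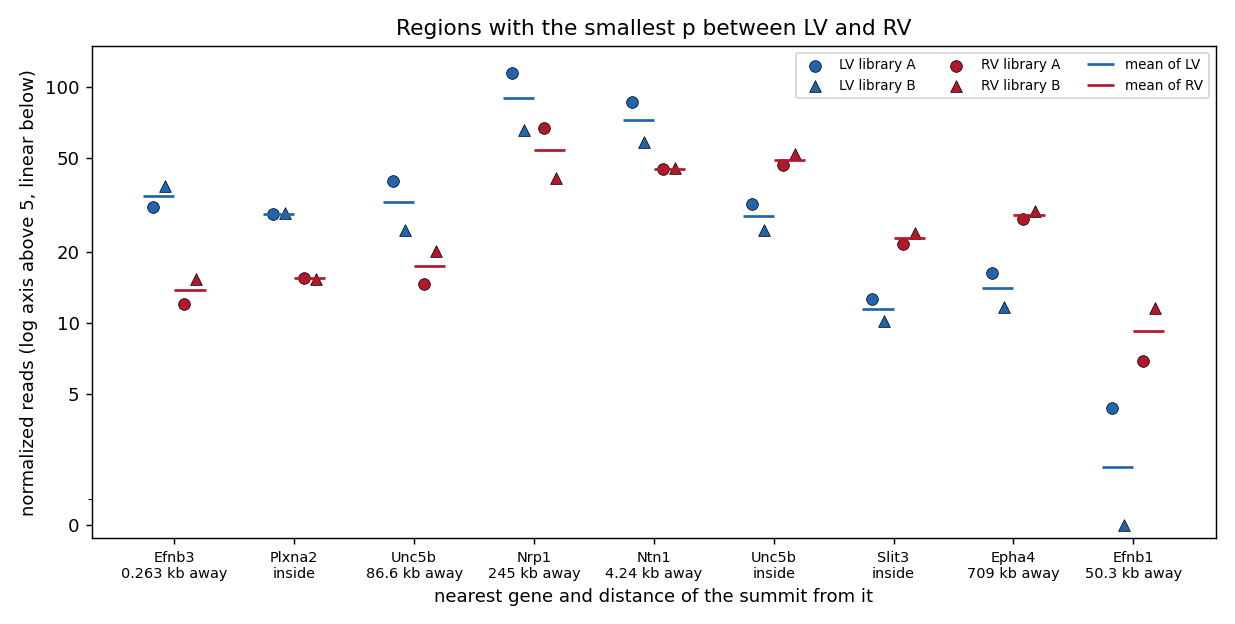
Normalized reads (log axis above 5, linear below) of the 9 guidance regions with the smallest p on each side, 1 symbol per library and a line at the mean of each ventricle (n = 2 pools), with the distance of the summit from the gene. LV lies above RV at the first 5 regions and RV above LV at the last 4, and the libraries overlap at Nrp1.

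Unc5b had regions on both sides. Its region inside the gene on chromosome 10, at 60814370 to 60815254 with a fold of 7.02, held 32.0 and 24.9 normalized reads in LV and 46.8 and 52.1 in RV, with a limma log2 of 0.78 ± 0.32 (SE, adjusted p 0.706). Of the 9 regions inside Unc5b 8 were higher in RV, with a median log2 of 0.43 and sums of 93.8 and 82.0 normalized reads in LV against 119.5 and 123 in RV. Of the 8 regions outside it 5 were higher in LV, with a median of −0.56 and sums of 109 and 103 in LV against 78.8 and 85.9 in RV. Over all 17 the sums were 202 and 185 in LV against 198 and 208 in RV, which overlap. This split was chosen after the values were seen and was not tested.

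Sema6d had a cluster of 3 regions 30.6 to 37.2 kb after its start site, with folds of 5.70 to 6.28 and log2 values of 0.62, 0.83 and 0.76, also described after the values were seen. The middle region, on chromosome 2 at 124125546 to 124125854, held 1 and 10 reads in LV and 18 and 13 in RV. limma gave it a log2 of 1.52 with an adjusted p of 0.706. Without LV library B, which leaves only the LV library with 1 read, the limma log2 was 3.10. The LV libraries stood far apart there, at 0.744 and 14.7 normalized reads, against 15.6 and 12.5 in RV. The other regions of the cluster had both RV libraries above both LV libraries.

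Beyond the ligands and receptors, 55 genes of the same pathways were read in the same way. Of 16 cofactors and co-receptors 13 had a peak (42 peaks), and of 39 cytoplasmic effectors 28 had one (147 peaks), together 74.5% of genes against 32.6% of all protein-coding genes. These genes are long too, with a median of 112 kb. Per Mb of nearest sequence the cofactors had 5.44 peaks and the effectors 18.4, against 6.46 for all genes. Their median fold was 4.09, close to the 4.16 of the guidance genes. The strongest peaks lay at Srgap1 (17.4), a GTPase-activating protein that binds Robo receptors, and at Mical3 (13.2) and Mical2 (11.3), of a family of actin-oxidising enzymes that act below plexins. Between the ventricles 94 of the 189 regions were higher in RV, the median log2 was −0.02, and by the authors' deposited table, 0 had an adjusted and 2 an unadjusted p under 0.05, both higher in LV, where 0.341% of all regions passed.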

How the data were processed

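PRDM16 ChIP-seq peak lists of WT and Prdm16cKO ventricles and a table that compares the ventricles at each WT peak were used. Per the submitters' processing notes, which give no role or order, BWA 0.7.12-r1039, MACS2 2.1.1.20160309, HOMER, DESeq2 and the builds GRCm38 and mm10 were used. The sources used here do not state filters, pooling or the test behind the table. The deposited peak lists hold a score, the fold enrichment (a ratio of ChIP over background) and the −log10 p and −log10 q of each peak as the authors' peak caller gave them. Per the file headers, the deposited table holds the signal of LV and RV, log2 values (log2FC positive where RV is higher) and p-values before and after adjustment.

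The values of both ventricles were 0.5 above the mean over 2 libraries of whole reads times a factor (0.744 and 1.47 for LV libraries A and B, 0.866 and 0.965 for RV libraries A and B). This gave exactly 1 solution for 100% of the 17587 regions (tolerance 1e-07), and the reads recovered were used per library. These letters could not be matched to the labels' replicate numbers. Reads of input and whole-ventricle libraries were not used here. Reads carry no molecular identifiers. Intervals (95%, Wilson) are on counts of peaks and cover counting error only. They treat peaks as independent, although many peaks share a gene (17 at Unc5b and 14 at Sema6d).

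Summits were assigned to the nearest gene body in a RefSeq table of GRCm38.p6, ties going to the nearer gene end. Nearest sequence is the part of the genome closer to a gene than to any other. limma 3.58.1 (R 4.3.3) was fitted to log2(normalized reads + 1) over all regions, 2 LV against 2 RV libraries. It used a mean-variance trend and Benjamini-Hochberg adjustment. The fit and the recovery of reads were run on simulated data to check the code. For the fit, the simulated spread between libraries was a chosen value, so no detectable size of difference is drawn from it. The rest was done in Python 3.11.15 (pandas 2.3.3, numpy 2.4.6), with figures from matplotlib 3.10.9. Alternatives changed the distance limit, peak threshold, knockout overlap, pseudocount, read minimum and libraries. Named were up to 3 genes with the strongest peak per family, the genes with most peaks, knockout overlaps, genes without a peak and the regions of smallest p. The members, the pathway and marker lists and the tests were chosen with earlier results of these data known.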

Additional observations from a re-analysis of the deposited data

How the results depend on the processing

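At a fold of at least 5 the genes with a peak fell from 48 to 29 and the peaks from 202 to 64, and with summits within 10 kb the peaks fell to 128. In the other settings the genes numbered 40 to 56, the highest with every gene within 50 kb of a summit counted. The count of guidance regions between LV and RV was 0 by the authors' adjusted p and 1 at an unadjusted p under 0.05. By limma it was 0 at the adjusted threshold and 14 at an unadjusted p under 0.05. It was also 0 with a pseudocount of 0.1 or 5 or a minimum mean of 8 reads. A fit without 1 library leaves a lone library in its ventricle, which is then assumed to vary like the other pair. Only the log2 values of those fits are given, as for the Efnb1 and Sema6d regions above. The median log2 of RV over LV stayed between −0.07 and 0.07 in every setting tried. Of 62 limma values of the 9 named regions under other settings, 0 changed direction. Leaving out 1 library changed the limma log2 by a factor of over 1.5 at some regions. It ranged from −1.11 to −0.31 at Nrp1, from −0.93 to −0.37 at Ntn1, from −1.17 to −0.50 at the upstream Unc5b region and from 0.87 to 3.32 at Efnb1. No paired analysis was possible because the recovered libraries carry no replicate number. The median peak held 6 to 10 reads per library. No limit of detection is given here, so the size of difference that these tests could have missed is not stated.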
